A study of Rattus norvegicus with 16 samples.

Results

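The genes described here mark the mural cells of blood vessels, which are the smooth muscle cells of arteries and arterioles and the pericytes of capillaries. They are 10 symbols taken by name from 16514 symbols in the deposited tables, and each is represented by its locus with the highest mean level. Of these, 5 encode contractile or cytoskeletal proteins (Acta2, Tagln, Cnn1, Myh11 and Des) and 5 are markers used for pericytes (Vtn, Pdgfrb, Rgs5, Kcnj8 and Abcc9), although Des and Pdgfrb are found in both cell types. All 10 were analysed in hypothalamus and 9 in hippocampus, where Myh11 was not analysed. Every member analysed passed the filter on low values, a mean of at least 1 FPKM (expression scaled to transcript length and sequencing depth) over the libraries of the table.

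Male Sprague Dawley rats gave the tissue, hippocampus or hypothalamus, from which poly-A RNA was sequenced. The control rats had no treatment, and the treated rats were fed fructose for 6 weeks. The tables gave 4 control and 4 fructose libraries of hippocampus, and 4 control and 3 fructose libraries of hypothalamus. A replicate 4 of the hypothalamus fructose group is labelled and was not analysed here. The labels give neither the age of the rats, nor the fructose dose, nor whether each library is a separate rat, so p-values measure only the spread between libraries. The tissue was taken whole, so vessels on the brain surface, the membranes around them and capillaries inside the tissue could all contribute RNA.

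Smooth muscle cells wrap larger vessels in layers and shorten when myosin, here the heavy chain Myh11, pulls on actin filaments made largely of Acta2. Tagln and Cnn1 bind these filaments, and Des forms the intermediate filaments that link them to the cell. Pericytes sit singly on capillaries and carry little of this machinery. They depend on the receptor Pdgfrb, which binds a growth factor released by endothelial cells, and they express Rgs5, a brake on G protein signalling, and the potassium channel made of the pore Kcnj8 and the regulatory subunit Abcc9. Vtn, vitronectin, is an adhesion protein of blood and matrix that brain pericytes secrete.

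In smooth muscle, the factors Srf and Myocd switch on contractile genes through CArG boxes, short AT-rich sites. Promoters from RefSeq (build GRCr8) were found for 7 of the 10 members, Tagln, Myh11 and Pdgfrb being the others. The 250 bases before the start site are shown 5′ to 3′ for the contractile genes Acta2 and Des, whose levels had similar profiles across hypothalamus libraries but not at the Acta2 locus used in hippocampus, and for the pericyte markers Vtn and Kcnj8, of which Vtn lay nearer to the contractile profile. Capitals mark CArG-like boxes in Acta2 and GC boxes (GGGCGG on either strand) in the others. The intervals are chr1:241172504-241172753 (minus strand) for Acta2, chr9:84299376-84299625 (plus) for Des, chr10:63892532-63892781 (plus) for Vtn and chr4:177246549-177246798 (minus) for Kcnj8.
Acta2: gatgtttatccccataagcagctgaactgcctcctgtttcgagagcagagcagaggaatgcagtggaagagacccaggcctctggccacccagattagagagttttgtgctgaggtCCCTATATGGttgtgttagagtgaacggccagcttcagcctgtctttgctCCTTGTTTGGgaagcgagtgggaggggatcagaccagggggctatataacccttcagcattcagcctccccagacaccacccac
Des: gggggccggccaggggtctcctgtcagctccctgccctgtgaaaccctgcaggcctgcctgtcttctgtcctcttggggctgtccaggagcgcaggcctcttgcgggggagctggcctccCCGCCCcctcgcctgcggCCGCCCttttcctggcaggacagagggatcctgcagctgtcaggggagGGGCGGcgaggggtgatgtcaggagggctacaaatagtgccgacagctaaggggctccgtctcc
Vtn: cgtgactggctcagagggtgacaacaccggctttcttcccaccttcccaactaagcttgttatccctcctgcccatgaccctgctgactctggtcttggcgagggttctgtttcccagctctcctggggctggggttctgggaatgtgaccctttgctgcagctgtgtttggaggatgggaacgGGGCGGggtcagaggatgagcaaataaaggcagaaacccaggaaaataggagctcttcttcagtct
Kcnj8: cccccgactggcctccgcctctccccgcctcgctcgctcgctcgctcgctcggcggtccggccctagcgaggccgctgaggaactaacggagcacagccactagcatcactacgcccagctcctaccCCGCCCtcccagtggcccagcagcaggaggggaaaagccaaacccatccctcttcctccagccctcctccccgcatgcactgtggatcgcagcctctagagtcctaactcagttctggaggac

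The strict CArG box, with only A and T between its ends, was found in 0 of the 7 member promoters and in 1.5% of all 33469 promoter windows of this length. The CArG-like box, which allows 1 G or C among the 6 central bases and was chosen after the strict search, was found in Acta2 alone of the 7 and in 8.08% of all windows. Its 2 matches begin 134 and 84 bases before the start of Acta2. GC boxes were found in 5 of the 7 members and in 30.5% of all windows, with 3 of them in Des. The window was 54% G and C in Acta2, 68.8% in Des, 55.6% in Vtn and 66.8% in Kcnj8, against a median of 51.2% over all windows. These matches describe the letters of the windows only.

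In each tissue the control and fructose libraries numbered 1 were unlike the rest. Across loci, which are not independent replicates, Pearson's r of log2 values in hippocampus was 0.992 within this pair, 0.93 to 0.955 between the pair and the rest, and 0.971 to 0.991 within the rest. The hypothalamus values were 0.99, 0.949 to 0.961 and 0.981 to 0.99 in that order. Markers of hypothalamic neurons added up to 3787 to 9536 FPKM in hypothalamus libraries and 6.51 to 34.0 FPKM in hippocampus libraries. Markers of hippocampal neurons added up to 69.8 to 131 FPKM and 160 to 325 FPKM in the same order. Npy of the first list was listed at 0 in every hippocampus library, and Fibcd1 of the second in every library of both tables. They add nothing to those sums, and whether they are truly absent was not tested. Members' results are given with and without the replicate 1 libraries where these change a count.

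In control hypothalamus the order of the levels was Tagln (188 ± 76.4 FPKM, SD, n = 4), Acta2 (161 ± 63.2), Vtn (81.5 ± 19.2), Rgs5 (78.3 ± 7.31), Myh11 (31.9 ± 12.7), Des (23.5 ± 9.81), Cnn1 (11.1 ± 6.06), Pdgfrb (9.83 ± 1.24), Abcc9 (5.57 ± 0.425) and Kcnj8 (2.75 ± 0.15). The ranges of neighbours in this order overlapped except between Rgs5 and Myh11, between Pdgfrb and Abcc9 and between Abcc9 and Kcnj8. The 2 tables may have been normalised separately, so levels were not tested between the tissues.

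The hypothalamus comparison asked whether mural genes differ after fructose in the seat of appetite control. All 5 contractile genes were lower in the fructose libraries, with means at 0.419 to 0.467 of the control means, while Rgs5, Kcnj8 and Abcc9, the pericyte regulator and the channel subunits, were at 1.02 to 1.17 of control. Vtn was at 0.553 and Pdgfrb at 0.772 of control. No member passed the test over all loci (limma adjusted p = 1.00 for each after rounding). At an unadjusted p under 0.05 there were 4 of the 10 members, all lower (Tagln, Acta2, Des and Vtn), where 3.14% of all 11498 loci tested were at that level and 2.12% were so and lower. At the adjusted threshold 0.0087% of loci passed, which is 1 locus and no member. The members and the gene lists below were chosen with earlier results of these data known. Counts set beside the share of all loci are therefore description and not independent support.

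**Figure D1:**
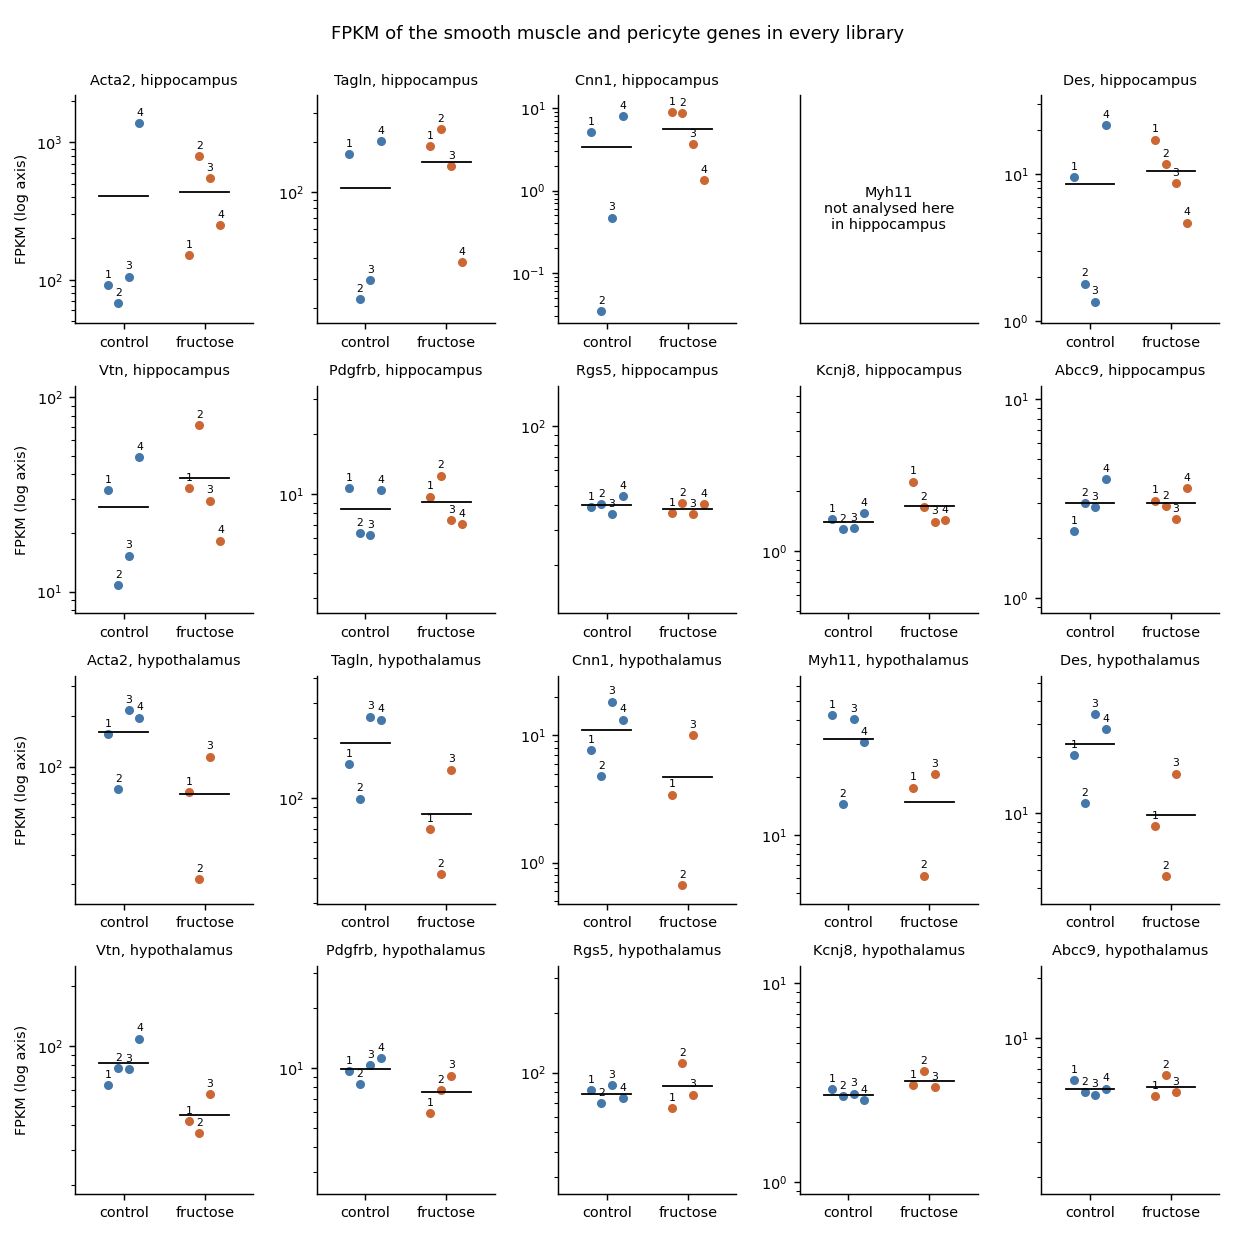
FPKM on a log axis for each member, with 1 point per library numbered by replicate and a bar at the group mean; the upper 2 rows are hippocampus and the lower 2 hypothalamus, contractile genes above pericyte genes. In hypothalamus the contractile genes of fructose replicate 2 are the lowest points, and Rgs5, Kcnj8 and Abcc9 stay within 1.69-fold over all libraries.

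Acta2, the smooth muscle actin, was at 156, 73.6, 217 and 196 FPKM in controls 1 to 4 of hypothalamus and at 70.3, 21.5 and 115 FPKM in fructose replicates 1 to 3. Control replicate 2 was low and lay within the range of the fructose libraries, so the groups overlapped. The log2 fold change was -1.39 ± 0.59 (SE; all fold changes are on the log2(FPKM + 1) scale), with a 95% interval of -2.77 to -0.01.

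Tagln, the actin-binding protein transgelin, was at 149, 99.4, 256 and 247 FPKM in control libraries, against 69.8, 41.5 and 139 FPKM with fructose. Control replicate 2 was again the lowest of its group, and fructose replicate 3 lay above it. The log2 fold change was -1.23 ± 0.47, with an interval of -2.33 to -0.13.

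Des, the intermediate filament protein desmin, was at 20.4, 11.4, 34.0 and 28.2 FPKM in control libraries, against 8.57, 4.61 and 16.3 FPKM with fructose. The same 2 libraries, control replicate 2 and fructose replicate 3, made the groups overlap. The log2 fold change was -1.22 ± 0.46 (interval -2.30 to -0.15).

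Myh11, the myosin heavy chain of smooth muscle, was at 42.4, 14.5, 40.2 and 30.5 FPKM in control libraries, against 17.7, 6.15 and 20.9 FPKM with fructose. Its groups overlapped through control replicate 2, and its log2 fold change was -1.10 ± 0.49 (interval -2.23 to 0.04). Cnn1, calponin, which binds actin and slows the myosin cycle, was at 7.69, 4.79, 18.4 and 13.3 FPKM in control libraries, against 3.42, 0.666 and 10.1 FPKM with fructose. Its log2 fold change was -1.33 ± 0.66 (interval -2.87 to 0.22).

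Fructose replicate 2 was the lowest of all 7 hypothalamus libraries for 5 of 5 contractile genes, and control replicate 3 the highest for 4 of 5. The contractile genes therefore varied together from library to library, not only between groups. Between fructose and control libraries with the same replicate number, the FPKM ratio of Tagln was 0.47, 0.418 and 0.542 for replicates 1, 2 and 3. That of Myh11 was 0.417, 0.423 and 0.52, and that of Des 0.419, 0.405 and 0.48. These ratios lay closer together than the levels did, and so did those of Acta2, at 0.449, 0.292 and 0.529. The ratio of Cnn1, at 0.445, 0.139 and 0.546, spread about as widely as its control levels. In hippocampus the same-numbered ratios were far apart, as for Tagln at 1.12, 10.6, 4.87 and 0.185 for replicates 1 to 4. With the replicate number as a block, which leaves control replicate 4 without a partner, the SE of Des was 0.103 instead of 0.461 and its log2 fold change -1.11 (limma adjusted p = 0.0982). This estimate rests on replicates 1 to 3 only, so its SE comes from few libraries and is itself uncertain. Myh11 had the same adjusted p of 0.0982 and Tagln one of 0.104, so that no member passed in this fit either. It gave 6 of 10 members at an unadjusted limma p under 0.05, all lower, where 6.6% of all loci were at that level and 4.32% were so and lower.

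Among the pericyte markers, Vtn was at 63.6, 77.0, 76.6 and 109 FPKM in control libraries, against 41.9, 36.5 and 56.9 FPKM with fructose. All fructose libraries lay below all control libraries, which was so for 1.58% of all loci tested (3.33% in either direction). The log2 fold change was -0.84 ± 0.22, with an interval of -1.35 to -0.32. Between same-numbered libraries its FPKM ratio was 0.658, 0.474 and 0.743.

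Pdgfrb, the receptor that holds pericytes on capillaries, was at 9.60, 8.25, 10.3 and 11.2 FPKM in control libraries, against 5.91, 7.73 and 9.15 FPKM with fructose. The groups overlapped, with a log2 fold change of -0.34 ± 0.17 (interval -0.74 to 0.05).

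Rgs5 was at 82.0, 70.2, 86.5 and 74.6 FPKM in control libraries, against 66.1, 112 and 77.6 FPKM with fructose. The fructose libraries lay on both sides of the control range, and the log2 fold change was 0.09 ± 0.19 (interval -0.35 to 0.53). Fructose replicate 2, the lowest library for every contractile gene, was the highest for Rgs5, Kcnj8 and Abcc9, 3 of the 5 pericyte markers.

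Kcnj8, the pore of the channel, was at 2.94, 2.71, 2.78 and 2.58 FPKM in control libraries, against 3.07, 3.61 and 3.01 FPKM with fructose. The lowest fructose library was above the highest control, as for 1.75% of loci, but the log2 fold change was 0.17 ± 0.12 (interval -0.11 to 0.45). Its partner Abcc9 was at 6.16, 5.36, 5.19 and 5.57 FPKM in control libraries, against 5.09, 6.53 and 5.35 FPKM with fructose. The groups overlapped, and the log2 fold change was 0.01 ± 0.13 with an interval of -0.29 to 0.32. Kcnj8 and Abcc9 are neighbours in the RefSeq gene table of GRCr8. The ratio of Abcc9 to Kcnj8 was 1.86 to 2.16 in control and 1.66 to 1.81 in fructose libraries of hypothalamus. In hippocampus it was 1.49 to 2.56 in control and 1.38 to 2.49 in fructose libraries, so the groups overlapped there. The ratio was not tested.

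**Figure D2:**
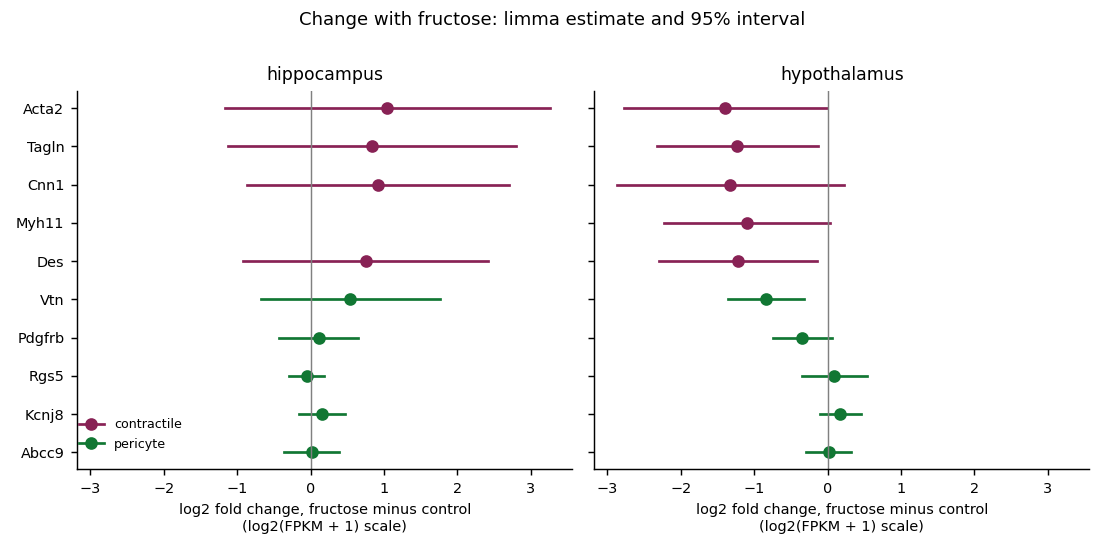
Log2 fold change of each member on the log2(FPKM + 1) scale (points) with the 95% interval of the limma fit (lines), hippocampus on the left and hypothalamus on the right. Contractile genes lie at -1.39 to -1.10 in hypothalamus with wide intervals, and the intervals of Rgs5, Kcnj8 and Abcc9 span 0 in both tissues.

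The contractile genes thus had a median log2 fold change of -1.23 in hypothalamus and the pericyte markers one of 0.01, a difference of -1.25; the median of all loci was 0.01. Within the pericyte markers the range ran from -0.84 in Vtn to 0.17 in Kcnj8. The difference between the classes was -0.60 without fructose replicate 2 and -1.73 without fructose replicate 3. Its SD between control libraries, from the mean log2 level of each class, was 0.595. Without fructose replicate 2 the log2 fold change was -0.72 for Acta2, -0.64 for Cnn1 and -0.60 for Myh11. That of Pdgfrb was -0.20 without fructose replicate 1, and that of Cnn1 was -2.004 without fructose replicate 3. The count of 4 members at an unadjusted limma p under 0.05 was 1 without control replicate 3 (1.95% of loci at that level in the same fit), control replicate 4 (1.67%), fructose replicate 1 (5.89%) or fructose replicate 2 (1.27%). It was also 1 without both replicate 1 libraries, where 9.28% of loci were at that level. It was 7, all lower, without fructose replicate 3, where 4% of loci were.

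The hippocampus comparison put the same question to a region that serves memory, and here the contractile genes had higher means in fructose libraries, but each difference had an interval that spanned 0. No member passed the test (limma adjusted p = 1.00 for each after rounding), and 0% of all 11385 loci did. At an unadjusted limma p under 0.05 there were 0 of 9 members, where 0.808% of loci were at that level, and no member had groups that did not overlap, where 0.668% of loci did (0.413% lower). The count was also 0 with the replicate block, where 1.78% of loci were at that level, and without both replicate 1 libraries, where 1.34% were.

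Tagln was at 169, 22.6, 29.5 and 203 FPKM in hippocampus control replicates 1 to 4 and at 189, 239, 144 and 37.6 FPKM in fructose replicates 1 to 4. Low libraries were thus found in both groups, control replicates 2 and 3 and fructose replicate 4. The log2 fold change was 0.84 ± 0.86 (interval -1.12 to 2.79).

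Des was at 9.57, 1.81, 1.36 and 21.4 FPKM in control libraries, against 17.1, 11.7, 8.67 and 4.68 FPKM with fructose. Cnn1 was at 5.10, 0.0345, 0.47 and 8.05 FPKM in control libraries, against 8.97, 8.74, 3.65 and 1.35 FPKM with fructose. The same 3 libraries were the lowest for both genes, and Cnn1 was close to 0 in control replicate 2. The log2 fold changes were 0.75 ± 0.73 for Des and 0.91 ± 0.78 for Cnn1. That of Cnn1 depends on the constant added to FPKM and was 1.77 ± 1.31 with 0.1 in place of 1.

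Acta2 has 2 loci in the hippocampus table, and its values there are uncertain since reads could be divided between them. The locus with the higher mean was at 91.6, 67.8, 106 and 1369.7 FPKM in control libraries, against 151, 797, 550.1 and 250.3 FPKM with fructose. The other was at 159, 23.9, 31.9 and 480.3 FPKM in control libraries, against 361, 258, 156 and 105 FPKM with fructose, with the low libraries of Tagln. The first locus did not follow the other contractile genes: fructose replicate 1 was its lowest fructose library and was the highest for Des. The loci gave log2 fold changes of 1.04 ± 0.97 and 1.16 ± 0.92, but their fructose means in FPKM were only 1.07 and 1.26 of the control means. The same ratio of means was 1.44 for Tagln, 1.24 for Des and 1.66 for Cnn1.

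Of the pericyte markers in hippocampus, Vtn was at 33.3, 10.8, 15.3 and 49.1 FPKM in control libraries, against 34.1, 71.6, 29.3 and 18.3 FPKM with fructose, low in the same 3 libraries as Tagln. Its log2 fold change was 0.54 ± 0.53. Pdgfrb was at 10.7, 6.36, 6.24 and 10.5 FPKM in control libraries, against 9.73, 12.4, 7.39 and 7.05 FPKM with fructose, with these 3 libraries lowest again. Its range over libraries was 1.99-fold, against 6.61-fold for Vtn and 10.6-fold for Tagln.

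Rgs5 was at 39.2, 40.3, 35.9 and 44.4 FPKM in control libraries, against 36.4, 40.8, 36.1 and 40.4 FPKM with fructose. The highest library was 1.24-fold above the lowest, and the log2 fold change was -0.05 ± 0.10 (interval -0.29 to 0.18). Kcnj8 was at 1.45, 1.29, 1.31 and 1.55 FPKM in control libraries, against 2.24, 1.66, 1.41 and 1.43 FPKM with fructose, and Abcc9 at 2.17, 3.01, 2.87 and 3.97 FPKM in control libraries, against 3.09, 2.91, 2.48 and 3.56 FPKM with fructose. The groups overlapped for both subunits, with log2 fold changes of 0.15 ± 0.14 and 0.01 ± 0.16.

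The contractile median of the 4 genes was 0.88 and the pericyte median 0.11, a difference of 0.77, while the median of all loci was -0.00379. The difference between classes came to 0.36 when control replicate 2 was left out and to 0.495 when control replicate 3 was, and was 1.22 when control replicate 4 was. Its SD between control libraries, from the mean log2 level of each class, was 1.26. Without control replicate 4, 1 member had an unadjusted limma p under 0.05, where 2.15% of loci did. Single genes moved as far: with 1 library left out at a time, the log2 fold change was 0.60 to 2.03 for Acta2, the extremes being without control replicate 2 and without control replicate 4. It was 0.31 to 1.41 for Tagln, 0.28 to 1.36 for Des, 0.40 to 1.44 for Cnn1 and 0.19 to 0.90 for Vtn.

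The members also differed in how much they varied between libraries, taken over both groups, so that the spread includes any difference between groups. In hippocampus the SD of log2(FPKM + 1) over the 8 libraries was 1.39 for Tagln, which was above that of 96.5% of loci tested, and 0.105 for Rgs5, above that of 3.97%. In hypothalamus Acta2 (SD 1.14), Cnn1 (1.19), Tagln (0.943), Des (0.93) and Myh11 (0.911) were above 96.2% or more of loci. Kcnj8 (0.118) and Abcc9 (0.114) were above 9.12% and 7.99%, but Rgs5 was above 49.5% and Pdgfrb above 56.8%. In hippocampus Pdgfrb was above 76.9%, Abcc9 above 38.8% and Kcnj8 above 20.8%. Vtn was close to the contractile genes, at 93.6% in hippocampus and 90.6% in hypothalamus.

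Set against Rgs5 in the same library, Tagln ranged from 0.562 to 5.86 in FPKM ratio in hippocampus and from 0.371 to 3.32 in hypothalamus. In hypothalamus it was 1.81, 1.42, 2.96 and 3.32 in control and 1.06, 0.371 and 1.79 in fructose libraries. Bulk values cannot tell fewer cells of a type from less RNA per cell.

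The difference of the fructose change between tissues, hypothalamus minus hippocampus, was tested for the 9 members present in both tables among 9931 symbols. It was -2.44 ± 1.22 for Acta2, -2.24 ± 1.08 for Cnn1, -2.07 ± 1.05 for Tagln and -1.98 ± 0.92 for Des. Vtn differed by -1.38 ± 0.63 and Pdgfrb by -0.45 ± 0.30. The remaining 3 markers lay near 0, at 0.14 ± 0.22 for Rgs5, 0.02 ± 0.17 for Kcnj8 and -0.0003 ± 0.21 for Abcc9. No member passed (limma adjusted p = 1.00 for each after rounding). Des and Vtn had an unadjusted limma p under 0.05, both lower, 2 of 9 members, where 2.31% of symbols were at that level and 1.8% were so and lower. With limma array weights, which count outlying libraries less, Acta2, Cnn1, Des, Tagln and Vtn passed as lower in this contrast (limma adjusted p = 0.0222 to 0.0243), as 3.38% of all symbols did in that fit, while no member passed within either tissue. The count of 2 was 0 in the replicate block fit and also when both replicate 1 libraries were dropped. It ranged from 0 to 5 when single libraries were left out, in fits where 0.966% to 4.17% of symbols were at that level: it was 0 without hippocampus control replicate 2 or 3 or fructose replicate 2, and without hypothalamus control replicate 3 or 4 or fructose replicate 1 or 2. It was 1 without hippocampus fructose replicate 1 or 3 or hypothalamus control replicate 1, 3 without hypothalamus control replicate 2, and 4 or 5 without hippocampus control replicate 1 or 4, hippocampus fructose replicate 4 or hypothalamus fructose replicate 3.

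Other genes of smooth muscle contraction had the direction of the contractile members in each tissue, at smaller medians. In hypothalamus 20 of 22 tested were negative in log2 fold change (median -0.49, against 0.01 for all loci), and 4 had an unadjusted limma p under 0.05 and were lower. Of all loci 48.5% were negative there, and 2.12% were lower at that level. Mustn1, a small nuclear protein of muscle, was at 28.3 ± 11.2 FPKM in control libraries, against 10.6 ± 5.80 FPKM with fructose. The myosin light chain Myl9 was at 143 ± 56.9 and 72.2 ± 32.4 FPKM, and Pln, an inhibitor of the calcium pump of the sarcoplasmic reticulum, at 10.4 ± 3.34 and 4.70 ± 2.80 FPKM. In hippocampus 20 of 21 were positive, with a median of 0.34 and 0 at that level. There 51.4% of all loci were negative, and 0.808% were at that level. There, Sncg, a synuclein found in several cell types, was at 8.01 ± 6.78 FPKM in control libraries, against 15.4 ± 7.29 FPKM with fructose, and Pln at 2.46 ± 2.63 and 4.30 ± 1.94 FPKM. Ppp1r12b, a regulatory subunit of myosin phosphatase, was at 14.9 ± 1.75 and 17.2 ± 2.58 FPKM.

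Further pericyte markers were divided in both tissues. In hypothalamus 12 of 17 tested were negative (48.5% of all loci), with a median of -0.22. At an unadjusted limma p under 0.05, 2 were lower (2.12% of all loci). These were Anpep and Ifitm1. The aminopeptidase Anpep was at 3.61 ± 0.0827 FPKM in control libraries, against 2.17 ± 0.752 FPKM with fructose. It was lower with no overlap, as were 1.58% of loci. Ifitm1, an interferon-induced membrane protein, was at 28.1 ± 8.56 and 13.1 ± 9.95 FPKM. Enpep, another aminopeptidase, followed at 2.03 ± 0.676 and 1.19 ± 0.403 FPKM, and is uncertain since it has 2 loci. The proteoglycan Cspg4 (NG2) of pericytes and oligodendrocyte precursors was at 5.92 ± 0.415 and 5.80 ± 1.20 FPKM. In hippocampus 11 of 17 were positive, with a median of 0.09 and 0 at that level (51.4% of all loci negative, 0.808% at that level). The cytochrome oxidase subunit Cox4i2 was at 5.17 ± 1.04 and 7.51 ± 2.47 FPKM, Enpep, again with 2 loci, at 2.08 ± 1.74 and 3.06 ± 1.35 FPKM, and Ndufa4l2 at 2.64 ± 1.30 and 1.77 ± 0.595 FPKM. Cspg4, with 2 loci in this table, was at 3.05 ± 0.598 and 3.64 ± 0.917 FPKM. Cd248 was listed at 0 in every library of both tables, as was Col1a2 beside Col1a1 at levels above 0. Whether such a 0 means no expression was not tested.

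Of the transcription factors of smooth muscle, Srf was at 11.4 ± 2.80 FPKM in control, against 10.7 ± 3.69 FPKM in fructose-fed hypothalamus, and at 20.7 ± 2.503 and 19.4 ± 2.30 FPKM in hippocampus. Its partner Myocd lay under the filter in both tissues. It was at 0.223 to 0.34 FPKM in control, against 0.0796 to 0.158 FPKM in fructose-fed, hypothalamus. Its groups thus did not overlap, and it was not tested. Of the loci tested 1.58% were lower without overlap. In hippocampus Myocd was at 0.0064 to 0.198 FPKM in control libraries, against 0.0826 to 0.149 FPKM with fructose. Of 8 factors tested in hypothalamus 7 were negative (48.5% of all loci), with a median of -0.20. Tbx18, which marks mural cells and the tissue around vessels, was at 2.40 ± 0.568 and 0.846 ± 0.51 FPKM there with no overlap (1.58% of loci). Foxc1, a factor of vessel and meningeal development, was at 8.39 ± 2.56 and 4.30 ± 1.35 FPKM, and Ebf1 at 5.34 ± 1.04 and 4.14 ± 0.337 FPKM. In hippocampus 4 of 7 factors were positive, with a median of 0.05, where 51.4% of all loci were negative. Tbx18 was at 0.946 ± 0.831 and 1.62 ± 0.742 FPKM, Foxc1 at 2.99 ± 2.15 and 4.87 ± 2.37 FPKM, and Hey2 at 2.26 ± 0.583 and 1.91 ± 0.36 FPKM.

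Signals between endothelium and mural cells had medians of -0.06 in hypothalamus (11 of 21 negative) and 0.10 in hippocampus (17 of 21 positive). Among all loci 48.5% were negative in hypothalamus and 51.4% in hippocampus. Pdgfb, the endothelial ligand of Pdgfrb, was at 4.45 ± 0.597 FPKM in control, against 5.15 ± 1.07 FPKM in fructose-fed hypothalamus, and at 10.5 ± 1.11 and 10.9 ± 1.15 FPKM in hippocampus. Notch3, the Notch receptor of smooth muscle, was at 17.6 ± 5.62 and 15.0 ± 6.59 FPKM in hypothalamus and 5.60 ± 1.74 and 6.54 ± 1.67 FPKM in hippocampus. The groups overlapped for both genes in both tissues. In hypothalamus Angpt2, a ligand of the endothelial receptor Tek, was at 5.15 ± 0.45 and 2.69 ± 1.10 FPKM without overlap (1.58% of loci), but has 2 loci. Ednrb, an endothelin receptor found also in astrocytes, was at 69.9 ± 14.5 and 101 ± 12.97 FPKM, and the receptor Tgfbr2 at 11.9 ± 2.36 and 8.89 ± 2.22 FPKM. In hippocampus Angpt2 was at 3.19 ± 3.24 and 5.98 ± 3.91 FPKM and Pdgfra at 13.5 ± 2.08 and 16.6 ± 3.69 FPKM, both with 2 loci. S1pr1, a sphingosine phosphate receptor, was at 55.3 ± 3.81 and 49.8 ± 2.46 FPKM there.

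**Figure D3:**
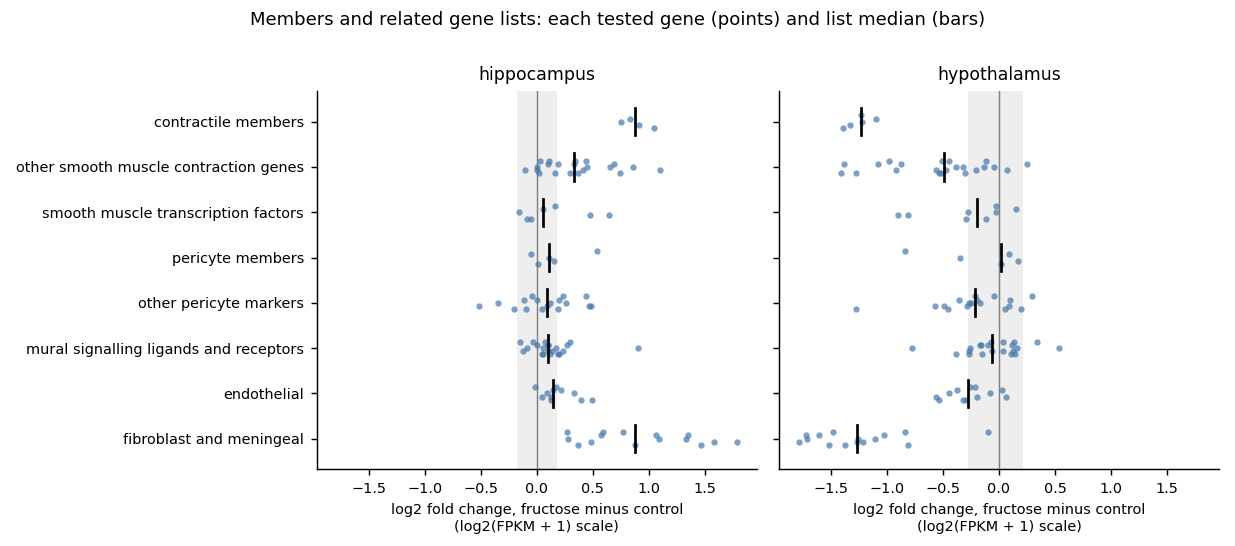
Log2 fold change on the log2(FPKM + 1) scale of each tested gene (points) of the members and 6 related lists (pericyte and contractile members shown apart), with the list median (bar); the grey band spans the 10th to 90th percentile of all loci, -0.17 to 0.17 in hippocampus and -0.27 to 0.20 in hypothalamus. Contractile members and fibroblast and meningeal genes lie farthest from 0, in opposite directions in the tissues.

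Markers of fibroblasts and meninges, the membranes that carry the large surface vessels, moved with the contractile members. In hypothalamus their summed level was 370 to 786 FPKM in control libraries, against 110 to 401 FPKM with fructose, lowest in fructose replicate 2. All 15 tested were negative there (median -1.26), 11 of them at an unadjusted limma p under 0.05. Of all loci 48.5% were negative, and 2.12% were lower at that level. The list was chosen with earlier results of these data known, so these counts are not independent support. The growth factor Igf2 was at 251 ± 111 and 82.0 ± 60.6 FPKM and the proteoglycan Dcn at 61.4 ± 17.5 and 36.9 ± 23.1 FPKM. In hippocampus the sum was 70.8 to 418 FPKM in control libraries, against 188 to 660.3 FPKM with fructose. All 15 tested were positive (median 0.88), where 51.4% of all loci were negative. At an unadjusted limma p under 0.05 only 1 of them was higher, Col1a1, where 0.334% of all loci were. Col1a1 was at 25.97 ± 22.4 and 83.7 ± 71.5 FPKM and Igf2, which has 2 loci there, at 69.8 ± 55.2 and 119 ± 49.6 FPKM. Control replicates 2 and 3 of hippocampus, low for Tagln, had the lowest sums, at 85.2 and 70.8 FPKM, while fructose replicate 4, also low for Tagln, was at 334 FPKM. Of this list only Col1a2 was listed at 0, in every library of both tables, beside Col1a1 at levels above 0. Choroid plexus markers in hippocampus added up to 7597, 3023, 1195 and 2581 FPKM in control replicates 1 to 4 and to 5853, 1591, 1502 and 4446 FPKM in fructose replicates, which is not the order of Tagln. Ependymal markers in hypothalamus, at 73.3 to 116 FPKM in control and 119 to 144 FPKM with fructose, were highest in fructose replicate 2. The part of any of these cells in the members' differences was not tested.

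Endothelial markers varied less. Their sum was 158 to 181 FPKM in control, against 122 to 164 FPKM in fructose-fed hypothalamus. There 10 of 12 were negative (median -0.28, 1 at an unadjusted limma p under 0.05). In hippocampus it was 171 to 258 and 204 to 254 FPKM, and 10 of 11 were positive (median 0.14, 0 at that level). Over all loci 48.5% and 51.4% were negative in hypothalamus and hippocampus, and 3.14% and 0.808% were at that level. The tight junction protein Cldn5 was at 48.2 ± 6.20 FPKM in control, against 42.6 ± 9.94 FPKM in fructose-fed, hypothalamus, and at 88.8 ± 31.2 and 94.9 ± 21.7 FPKM in hippocampus. The adhesion molecule Esam was at 21.9 ± 4.46 and 17.2 ± 2.60 FPKM, and 43.0 ± 4.28 and 42.5 ± 5.27 FPKM. Of the red cell genes, Hbb-b1 was at 77.2 ± 54.0 and 45.0 ± 12.96 FPKM in hypothalamus. Alas2 was at 21.6 ± 14.5 and 11.9 ± 4.34 FPKM there and at 5.53 ± 2.18 and 7.08 ± 3.13 FPKM in hippocampus. The blood sum in hypothalamus was highest in control replicates 1 and 3, at 178 and 131 FPKM, and 40.8 to 76.6 FPKM in the other libraries.

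**Figure D4:**
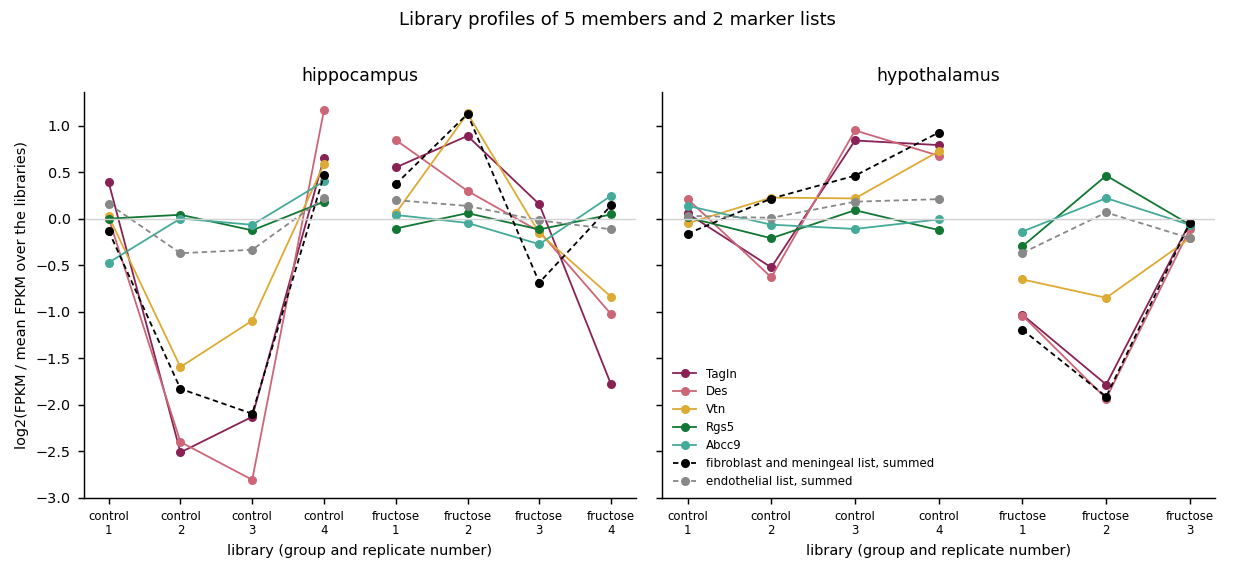
Log2 of the FPKM of 5 members, and of the summed FPKM of the endothelial and the fibroblast and meningeal lists, over its mean in the tissue, for each library; lines only join the values of a gene within a group. Tagln, Des and the fibroblast and meningeal sum fall to their lowest values in the same 2 control libraries of hippocampus and in fructose replicate 2 of hypothalamus, while Rgs5 and Abcc9 stay nearer 0.

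The genes outside the members with profiles nearest to the mean contractile profile were measured by the root mean square distance of log2(FPKM + 1) values, each centred on its mean over the libraries. Being chosen on the libraries of both groups, such genes share the contractile group difference by selection. Over the 7 hypothalamus libraries these were Col3a1, a collagen (distance 0.17), Mustn1 (0.20), Pln (0.24), the elastic fibre protein Eln (0.24) and Foxc2, a transcription factor (0.25), against a median distance of 0.97 over all loci. Col3a1 was at 21.4 ± 6.28 FPKM in control libraries, against 9.77 ± 6.95 FPKM with fructose, Eln at 11.99 ± 5.83 and 5.41 ± 4.44 FPKM, and Foxc2 at 6.34 ± 2.35 and 2.55 ± 2.27 FPKM. Among members, Vtn was at 0.61, Pdgfrb at 0.76 and Rgs5 at 1.04. Over the 8 hippocampus libraries the nearest were the chemokine Ccl19 (0.26), the retinol carrier Rbp4 (0.30), the enteric actin Actg2 (0.33), Nt5dc2 (0.35), which has 2 loci, and the defensin Defb1 (0.36), against a median of 1.21. Ccl19 was at 7.94 ± 8.80 and 12.5 ± 6.69 FPKM, Rbp4 at 23.9 ± 20.0 and 41.5 ± 22.1 FPKM and Actg2 at 2.28 ± 2.72 and 3.69 ± 2.72 FPKM. In hippocampus Des and Cnn1 were at 0.34 and Tagln at 0.41, but the Acta2 locus used was at 0.88, farther than Vtn at 0.47 and about as far as Pdgfrb at 0.91. The contractile members are part of the mean profile, which shortens their own distances to it. Kcnj8, Rgs5 and Abcc9, at 1.08, 1.14 and 1.15, were closer to the median of all loci. A gene that varies little lies at about the spread of the profile itself, so these distances mainly describe low variation.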

How the data were processed

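Poly-A RNA was sequenced on an Illumina HiSeq with CASAVA 1.8.2 for demultiplexing, per the labels' protocols. The deposited values are FPKM per locus, made by the authors; the submitters' processing notes name TopHat, TopHat2, Bowtie, Bowtie2, Cufflinks, Cuffdiff and the build rn5, without versions, order or annotation. All status flags of the members were OK. The hypothalamus table has 7 columns, so that comparison, designed as 4 against 4, was made with 4 against 3. FPKM carries no counts. Steps in values under 0.1 FPKM put 13.7% to 25.1% of ratios to control replicate 2 in a single bin in hippocampus and 18% to 34% in hypothalamus, at ratios of 0.678 to 1.07 and 0.908 to 1.03. In replicate 1 libraries only 1.68% to 3.18% fell together, and no relative depth was taken from them.

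Loci with a mean of at least 1 FPKM were tested on log2(FPKM + 1) with limma 3.58.1 (R 4.3.3), trended prior variance, no covariate beside group, and p-values adjusted over all loci by Benjamini-Hochberg; the difference between tissues was an interaction over the highest locus of each symbol. Scripts were tested on simulated data. Members and lists were chosen with earlier results of these data known. Named genes are all members, the 3 smallest p of each mural list and tissue, 5 fixed genes (Myocd, Srf, Notch3, Cspg4, Pdgfb), the 2 highest of the fibroblast, endothelial and blood lists, and the 5 nearest to the contractile profile. Others are named after their values were seen. Deviations from the group means were correlated between same-numbered control and fructose libraries. The r was 0.892, 0.208, 0.481 and 0.41 in hippocampus, and 0.848, 0.488 and 0.456 in hypothalamus. Replicate 1 libraries lay apart in both groups, which alone can make r positive for the other numbers. Differently numbered libraries were not compared, so these values do not show pairing. An alternative fit treated the numbers, which come from the labels, as a replicate block. Figures were drawn with matplotlib 3.10.9.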

Additional observations from a re-analysis of the deposited data

Results flagged for a closer look

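In hippocampus the Acta2 locus with the higher mean was at 1369.7 FPKM in control replicate 4, far above the next control library at 106 FPKM. It was the only 1 of the 30 groups of 4 libraries examined over the member loci in which a library stood this far from the others; chance gives about 1 in 20. The other Acta2 locus was also highest in that library, at 480.3 FPKM.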

How the results depend on the processing

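No member passed an adjusted p of 0.05 in hippocampus or in hypothalamus under any alternative run. The class difference in hypothalamus kept its sign in all alternatives and was -1.73 to -0.60 when single libraries were left out, that in hippocampus 0.36 to 1.22; with array weights they were -1.73 and 1.64. Members with an unadjusted limma p under 0.05 in hypothalamus were 1 without the filter on low values (3.46% of all loci were at that level in this fit), 1 without both replicate 1 libraries (9.28%) and 8 with array weights (6 lower and 2 higher, against 18.3%), and 1 to 7 when single libraries were left out. In hippocampus they were 5 with array weights, all higher (5.78%), and 0 to 1 when single libraries were left out. For the difference between tissues the count was 0 with the replicate block (3.36% of all symbols), without the filter (2.79%), with median scaling (2.02%) or without both replicate 1 libraries (3.88%), 1 with a pseudocount of 0.1 (2.18%) or a batch term for replicate 1 (3.8%), 3 with the other Acta2 locus (2.32%), 4 with loci summed per symbol (2.48%), 7 with array weights (6 lower and 1 higher, against 18.4%), and 0 to 5 when single libraries were left out; the cause was not tested. With the replicate block the hypothalamus count was 6, and no call changed.

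With array weights the tissue differences of Acta2, Cnn1, Des, Tagln and Vtn passed, at -4.40, -4.31, -3.48, -3.87 and -2.31. With a pseudocount of 0.1 the tissue difference of Cnn1 was -3.48 ± 1.68, against -2.24 ± 1.08 in the main fit, and did not pass. Signs turned only for values near 0. In hippocampus Abcc9 was -0.10 without both replicate 1 libraries and -0.0321 with array weights, and Rgs5 0.00795 with array weights. Leaving out single libraries gave -0.0916 to 0.12 for Abcc9 and -0.0352 to 0.23 for Pdgfrb in hippocampus, and -0.0773 to 0.0755 for Abcc9 and -0.12 to 0.25 for Rgs5 in hypothalamus. The tissue difference of Abcc9 was 0.000508 with the replicate block, 0.22 without both replicate 1 libraries and 0.23 with array weights, and -0.11 to 0.11 when single libraries were left out. That of Kcnj8 was -0.0047 with the replicate block and -0.0111 with a pseudocount of 0.1, and -0.0456 to 0.11 when single libraries were left out, and that of Rgs5 was -0.0696 to 0.31. The other Acta2 locus, added after both were seen, gave no member an adjusted p under 0.05. Depth is unknown, which limits what can be said of Kcnj8, Myocd and other genes of few FPKM.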
